A study of Mus musculus with 2 samples.

Results

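Urate, a product of purine breakdown, is taken up and secreted by kidney tubules, and 8 mouse genes linked to making, carrying or removing it were examined for accessible chromatin. The genes were chosen by function and place: the urate transporter gene Slc2a9, the 4 neighbouring Slc17 transporter genes Slc17a1, Slc17a2, Slc17a3 and Slc17a4, the scaffold gene Pdzk1, and the enzyme genes Xdh and Uox. They were taken from the 21938 protein-coding genes of GENCODE M21 outside the mitochondrial genome. Chromatin was mapped by DNase-seq, which sequences the ends left where the enzyme DNase I cuts open DNA in nuclei, in whole kidney of male B6CASTF1/J mice aged 25 days. The mice come from a cross of the C57BL/6J and CAST/EiJ strains. The 2 libraries are biological replicates 1 and 2 of 1 group, with no treated, mutant or control animals, so no condition was compared and no test between animals was made. Values below stand in the order replicate 1, replicate 2, unless named.

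In the mouse, xanthine dehydrogenase, encoded by Xdh, makes urate from purines, and urate oxidase, encoded by Uox, breaks it down in liver peroxisomes. In the kidney, GLUT9, the product of Slc2a9, moves urate across the cell membrane. Some of the Slc17 proteins (sodium-phosphate cotransporter family) carry organic anions including urate. The PDZ-domain protein of Pdzk1 tethers transporters under the brush border of the proximal tubule. Open promoters and enhancers appear in DNase-seq as peaks, and short stretches within them that a bound protein shields from cutting appear as footprints.

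Replicate 1 had 125393 peaks and 237471 footprints, and replicate 2 had 177001 peaks and 493495 footprints. Read numbers are unknown. The even steps in which low heights rise were 1.72 times larger in replicate 1, which is the ratio of depths if heights were divided by depth. The labels give kidney tissue, and promoter peaks in both libraries were found for 6 of 6 proximal tubule markers, at heights of 0.940 to 6.93 and 0.939 to 4.53, and for 0 of 6 hepatocyte markers, of which 5 had none in either library and Ttr had one of height 0.283 in replicate 2. Of 3 leukocyte markers none had a promoter peak. Both libraries also held promoter peaks for 2 of 2 markers each of loop of Henle, distal convoluted tubule and endothelium. The counts were 2 of 3 for podocytes, 1 of 2 for collecting duct and 1 of 4 for enterocytes. Over all protein-coding genes the share was 65.3%. In whole tissue, fewer cells of a type and less open chromatin per cell cannot be told apart.

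Of the 8 genes, 7 had a promoter peak in both libraries, and Uox had none in either. A promoter peak is one that overlaps the 500 bp on either side of any annotated transcription start site (TSS). The count was 7 of 8 in each library alone. Over all protein-coding genes, 65.3% had a promoter peak in both libraries, 66.2% in replicate 1 and 68.0% in replicate 2, and with 8 genes the difference from these shares was not tested. In the authors' stricter peak lists Slc17a2 and Slc17a4 were not held in replicate 1, which left 5 of 8, against 62.0% of all genes. Promoter CpG content differs among these genes. A promoter peak in both libraries was found for 6.43% of genes in the CpG decile of Slc17a1 (the lowest), 11.5% in that of Slc17a3 and Slc17a4, 23.5% in that of Xdh and 52.3% in that of Slc2a9, Slc17a2, Pdzk1 and Uox.

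The promoter peaks were low. Peak height is the authors' deposited signal, and the median over the 7 genes was 1.27 and 1.12, beside 7.36 and 6.63 over all 14530 and 14923 genes with a promoter peak in that library. Slc2a9 stood highest with a mean of 8.16 ± 4.68 (SD, n = 2 here and below), followed by Pdzk1 with 3.11 ± 0.950 and Xdh with 2.76 ± 0.176. Slc17a3 averaged 1.20 ± 0.107, Slc17a4 0.744 ± 0.290, Slc17a1 0.714 ± 0.223 and Slc17a2 0.502 ± 0.239. The ranges of Pdzk1 and Xdh overlapped, as did those of Slc17a4, Slc17a1 and Slc17a2, so no order was read within either group. With these basic start sites Slc2a9 lay above all the others in both libraries, and the Slc17 genes lay below Xdh in both. With the start sites of the comprehensive annotation the mean was 5.33 for Xdh and 1.40 for Slc17a1, and Xdh, at 5.25, then lay above Slc2a9, at 4.85, in replicate 1.

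**Figure D1:**
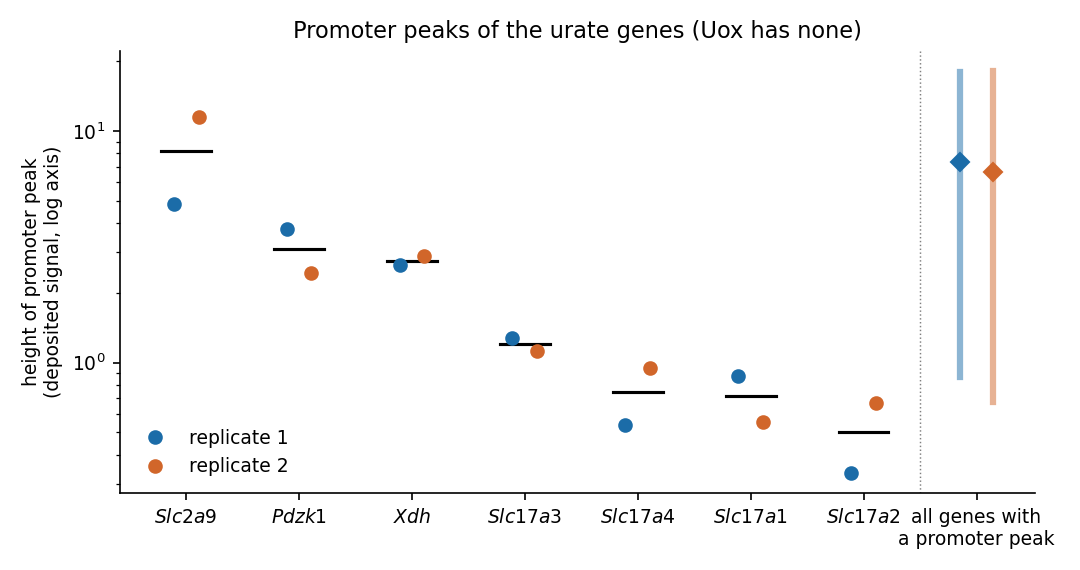
Height of the promoter peak (deposited signal, log axis) of the 7 urate genes that have one, with 1 point per library and a bar at the mean; at the right, the diamond is the median and the thick line the range from the 10th to the 90th percentile over all genes with a promoter peak. Only Slc2a9 in replicate 2, at 11.5, lies above the median of all genes, which was 6.63 in that library.

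Slc2a9, on the minus strand of chromosome 5, had its promoter peak at a start site inside the gene. The peak had a height of 4.85 in replicate 1 (chr5:38480341-38480540) and 11.5 in replicate 2 (chr5:38480381-38480560), higher than 37.1% and 71.1% of genes with a promoter peak. It lies next to the start of transcript Slc2a9-203 at position 38480306, 35 bp away in replicate 1 and 75 bp away in replicate 2. None of the upstream start sites at 38503143, 38502152, 38491957 and 38483385 had a peak within 500 bp in either library. A second, lower peak of 1.76 and 2.37 covered coding sequence of exon 1 of a transcript from this start. The mouse gene is known to make proteins that differ at their amino end, from transcripts with different starts. The sequence of this peak is shown, on the gene's strand, because it is the highest promoter peak among the urate genes. Capitals here and below mark bases inside a footprint in both libraries, which here came to 80 of 220 bases in 4 runs, the last of them rich in G.
Slc2a9 promoter peak (mm10 chr5:38480341-38480560, minus strand): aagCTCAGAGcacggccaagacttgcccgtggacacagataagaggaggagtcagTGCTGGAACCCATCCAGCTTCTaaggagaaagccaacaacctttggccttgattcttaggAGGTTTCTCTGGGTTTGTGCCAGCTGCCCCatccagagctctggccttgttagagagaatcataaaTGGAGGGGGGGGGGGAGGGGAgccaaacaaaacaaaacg

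Away from start sites, Slc2a9 held the highest intron peak of the set. This peak, at chr5:38469961-38470140, lies 9991 bp downstream of the nearest Slc2a9 start and had heights of 5.38 and 6.19, close to each other in the 2 libraries. It was higher than the promoter peak in replicate 1 and lower than it in replicate 2. The third of its 4 shared footprint runs, counted from the 5′ end, holds the letters AGGGGGCGC, the core of the site of CTCF, a factor that anchors chromatin loops, and all 9 letters lay inside a footprint of each library. The next highest shared peak, at chr5:38479141-38479300, had heights of 2.09 and 2.54. All 11 peaks that replicate 1 listed over the 173.87 kb of the locus (the gene with flanks of 10 kb) had a partner in replicate 2, which listed 21. The locus was no denser in peaks than most: 36.6% and 48.9% of protein-coding genes had a lower density.

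The intron peak of Slc2a9 and the highest peak of the Uox locus are printed together, because they are the only peaks over the 8 loci that hold this core. Exact matches on either strand in the 200 bases at a peak's centre occurred in 2 of 54 urate locus peaks in replicate 1 and 2 of 121 in replicate 2, that is 3.70% and 1.65%, beside 1.60% and 1.24% of all peaks. The counts are too small for a reading of that share.
Slc2a9 intron peak (mm10 chr5:38469961-38470140, minus strand): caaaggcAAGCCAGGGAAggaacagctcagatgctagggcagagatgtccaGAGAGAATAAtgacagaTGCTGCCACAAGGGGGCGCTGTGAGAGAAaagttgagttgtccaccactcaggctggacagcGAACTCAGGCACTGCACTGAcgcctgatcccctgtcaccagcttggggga
Uox upstream peak (mm10 chr3:146564401-146564560, plus strand): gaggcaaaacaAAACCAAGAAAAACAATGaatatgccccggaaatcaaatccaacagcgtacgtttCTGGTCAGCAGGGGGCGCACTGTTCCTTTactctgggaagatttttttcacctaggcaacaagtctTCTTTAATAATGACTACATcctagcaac

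Uox had no sign of an open promoter. No peak of either library came within 500 bp of its basic start sites at 146597077 and 146597165 on chromosome 3, and no base there was listed in the deposited track of false discovery rates below 0.05. The RefSeq promoter of Uox held none of the 11 motifs searched. Neither did that of Slc17a3, but it ends inside the Slc17a3 promoter peak of 1.27 and 1.12. That peak runs on downstream and holds the searched motif CCAAT in both libraries. A lack of motifs in a RefSeq promoter was therefore not read as a measure of openness. The Uox locus of 81.88 kb had 3 peaks and 4 footprints in replicate 1 and 4 peaks and 6 footprints in replicate 2. Of all genes, 24.2% and 23.6% were lower in peak density. The peak with the CTCF core was the highest of them at 3.64 and 6.73, and it lies 32.6 kb upstream of the first basic start, outside any gene body. The next shared peak, at chr3:146568261-146568460, had heights of 0.769 and 1.18. It lies 1966 bp in replicate 1 and 1986 bp in replicate 2 from the start of Uox-206, at 146570426. This transcript is in the comprehensive annotation alone, and its start had no peak within 500 bp. The other 3 peaks were at 0.222 in replicate 1 and at 0.219 and 0.283 in replicate 2, each in 1 library only.

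Xdh, on the minus strand of chromosome 17, had a promoter peak of 2.63 and 2.88 over its first exon (chr17:73950141-73950420 in replicate 2), the most alike between the libraries in relative terms, with a log2 ratio of replicate 2 to replicate 1 of 0.13. It was higher than 24.5% and 29.3% of genes with a promoter peak. The 2 highest peaks of the locus were at the other end of the gene. One, at chr17:73886181-73886380, covers coding sequence of exon 35 about 63.9 kb from the promoter and had heights of 5.25 and 5.40. The other, at chr17:73882281-73882440 beyond the 3′ end, had heights of 4.56 and 3.91. Both were higher than the promoter peak in each library. The exon peak lies 370 bp from the start of Xdh-213, a retained-intron transcript that only the comprehensive annotation holds, so it may be counted as a promoter peak or not. An intron peak of 1.19 and 1.60 at chr17:73903241-73903420 holds AGGTCAAAG, part of a nuclear receptor direct repeat and not the whole. These letters occur in 0.548% and 0.600% of all peaks.

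**Figure D2:**
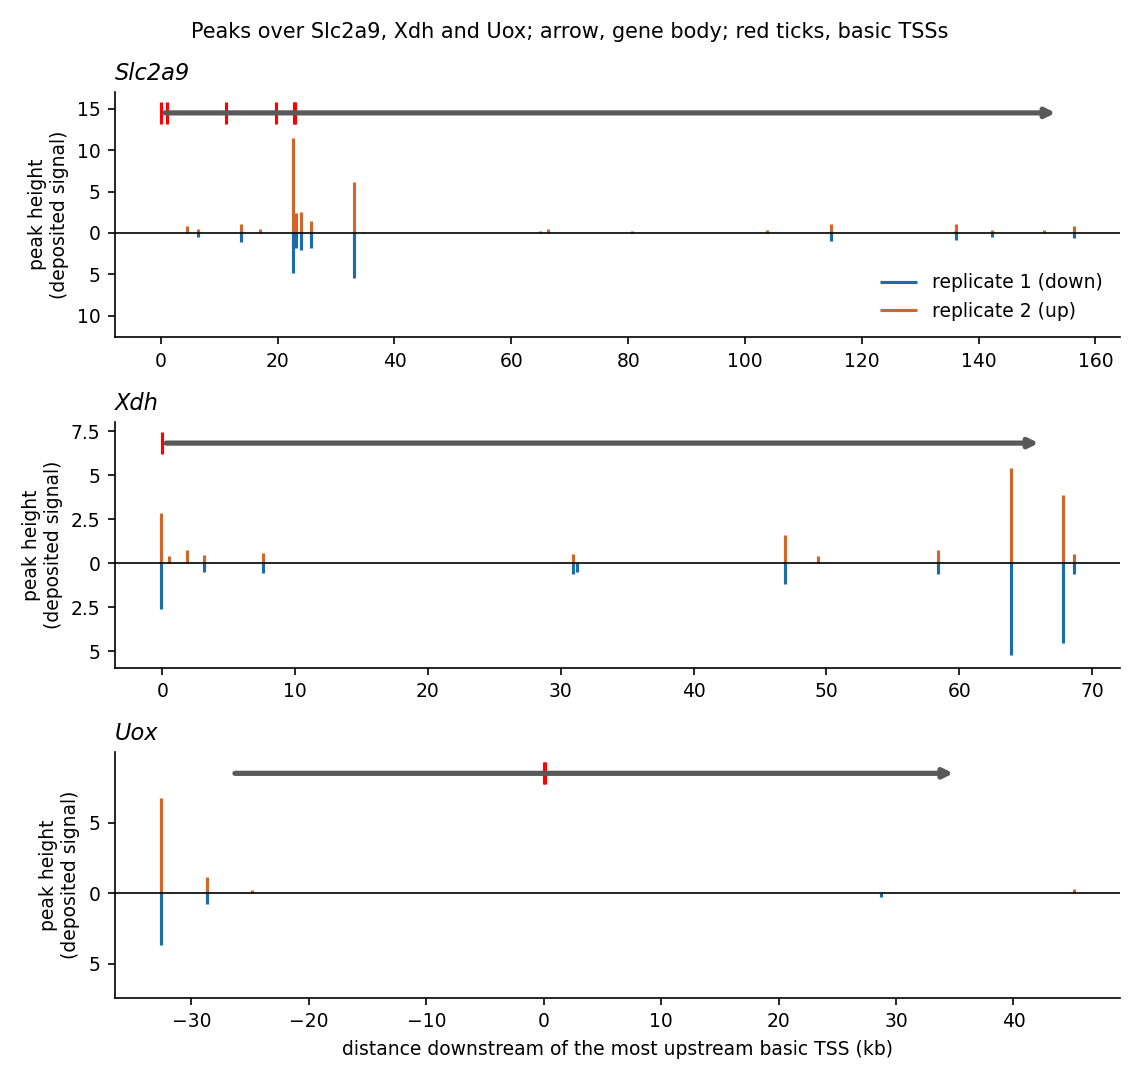
Height of each peak (deposited signal) by its distance downstream of the most upstream basic start site, for Slc2a9, Xdh and Uox; replicate 2 is drawn upward and replicate 1 downward, the arrow is the gene body and red ticks are basic start sites. The highest Slc2a9 peak of replicate 2, at 11.5, stands beside the innermost start sites, Xdh has 2 higher peaks near its 3′ end than at its start, and Uox has no peak at its basic starts.

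The Slc17 cluster lies on chromosome 13 in the order Slc17a2, Slc17a3, Slc17a1 and Slc17a4, the last on the minus strand. With 10 kb on each side it spans 128.02 kb (chr13:23796993-23925009) and held 20 peaks and 15 footprints in replicate 1 and 26 peaks and 57 footprints in replicate 2. The peaks were low. Heights ran from 0.282 to 1.36 with a median of 0.641 in replicate 1, and from 0.288 to 1.92 with a median of 0.527 in replicate 2, beside medians of 0.872 and 0.691 over all peaks. Of the 20 peaks of replicate 1, 19 overlapped one of replicate 2, and 18 of the 26 of replicate 2 overlapped one of replicate 1. Over the whole libraries 87.6% and 62.2% did. All 26 peaks of replicate 2 held a footprint, against 12 of 20 in replicate 1. Over the whole libraries the share with a footprint was also larger in replicate 2, at 86.7% against 73.3%.

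At the promoters of the cluster, Slc17a3, which encodes the transporter NPT4, had heights of 1.27 and 1.12, over identical bases in the 2 libraries (chr13:23839401-23839580). Slc17a1, which encodes NPT1, had 0.872 and 0.556. Slc17a4 had 0.538 and 0.949, and Slc17a2 had 0.333 and 0.671. The libraries differed in direction: Slc17a2 and Slc17a4 were higher in replicate 2 by 1.01 and 0.82 on the log2 scale, while Slc17a1 had a log2 ratio of -0.65 and Slc17a3 one of -0.18. The share of genes with a lower promoter peak was 14.5% and 15.7% for Slc17a3, 10.1% and 8.01% for Slc17a1, 5.12% and 13.7% for Slc17a4, and 1.36% and 9.90% for Slc17a2. The lowest false discovery rate listed near a start was 0.00457 in replicate 1 and 1.8e-09 in replicate 2 for Slc17a2, and 5.3e-11 and 2.9e-10 for Slc17a3.

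The 4 starts of this gene family are shown side by side, each from 170 bases before the most upstream basic start to 30 bases from it on, to compare their base composition and the few footprints there. Within these windows, only 3 bases of Slc17a1 lay inside a footprint of both libraries. The promoter peaks of Slc17a3 and Slc17a4 run on downstream of their windows, so footprints there are not shown. The whole promoter peaks held 1 and 3 footprints for Slc17a3, and 0 and 2 for Slc17a4. Those of Slc17a1 held 1 and 3, and those of Slc17a2 held 0 and 3. The window of Slc17a2 had 6 CpG and 45.0% G or C, that of Slc17a3 had 2 CpG and 35.0%, that of Slc17a1 none and 43.5%, and that of Slc17a4 none and 36.5%.
Slc17a2 (mm10 chr13:23806857-23807056, plus strand): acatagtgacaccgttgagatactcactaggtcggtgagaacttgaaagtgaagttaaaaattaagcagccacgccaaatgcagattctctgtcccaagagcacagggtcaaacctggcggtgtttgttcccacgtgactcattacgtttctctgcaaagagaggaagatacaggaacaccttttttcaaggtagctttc
Slc17a3 (mm10 chr13:23839264-23839463, plus strand): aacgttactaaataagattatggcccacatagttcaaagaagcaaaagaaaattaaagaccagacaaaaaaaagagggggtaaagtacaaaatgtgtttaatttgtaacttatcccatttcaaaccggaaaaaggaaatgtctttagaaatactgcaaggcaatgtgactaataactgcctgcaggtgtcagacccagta
Slc17a1 (mm10 chr13:23870095-23870294, plus strand): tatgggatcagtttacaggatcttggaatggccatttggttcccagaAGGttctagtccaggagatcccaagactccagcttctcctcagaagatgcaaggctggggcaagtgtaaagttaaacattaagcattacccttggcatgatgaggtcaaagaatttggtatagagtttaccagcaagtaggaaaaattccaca
Slc17a4 (mm10 chr13:23914980-23915179, minus strand): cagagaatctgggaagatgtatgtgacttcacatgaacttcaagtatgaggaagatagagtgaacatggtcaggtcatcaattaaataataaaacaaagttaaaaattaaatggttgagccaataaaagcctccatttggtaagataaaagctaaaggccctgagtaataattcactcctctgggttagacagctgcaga

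These windows share few of the searched letters. Slc17a1 has AGGTCAAAG at bases 150 to 158, counted from the 5′ end as printed, outside the footprints of both libraries, and 0.426% of RefSeq promoters hold it. Slc17a2 has CACGTG, an E-box, at bases 132 to 137, overlapping TGANTCA, the AP-1 site, at bases 136 to 142. Of each, 6 letters lay in a footprint of replicate 2 and none in one of replicate 1; the shares of RefSeq promoters with them were 7.15% and 7.81%. Slc17a4 has CCAAT at bases 120 to 124, and Slc17a3 has none of the 11 motifs in its window.

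The densest stretch of the cluster lay upstream of Slc17a1 and not at its basic start. Between 23864801 and 23869180, replicate 1 listed peaks of 0.564 to 1.04, and replicate 2 listed shared peaks of up to 1.92. The highest in replicate 2, at chr13:23867521-23867720, had heights of 0.880 and 1.92 and lies 30 bp before the start of Slc17a1-204, a transcript of the comprehensive annotation alone. A peak of 0.812 and 1.12 covers the further start at which RefSeq places a promoter of Slc17a1 (chr13:23868768-23869067). Slc17a1 thus had shared peaks at 3 annotated starts. The same peaks fall within 10 kb of the end of Slc17a3, and 9 and 8 peaks were shared by these 2 loci. This sharing bears on the peak densities, where 95.2% and 89.5% of genes were lower than Slc17a3, and 89.97% and 86.9% were lower than Slc17a1. The gap between Slc17a2 and Slc17a3 held a further pair of shared peaks, of 1.36 and 1.60 at chr13:23833161-23833340 and of 0.735 and 0.775 at chr13:23834961-23835120, the nearer to the Slc17a3 start being 4314 bp from it. At Slc17a4 the highest other shared peaks were 0.367 and 0.700 in an intron (chr13:23913921-23914100 in replicate 2), and 0.590 and 0.462 in untranslated sequence of exon 12 (chr13:23898321-23898520 in replicate 2).

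**Figure D3:**
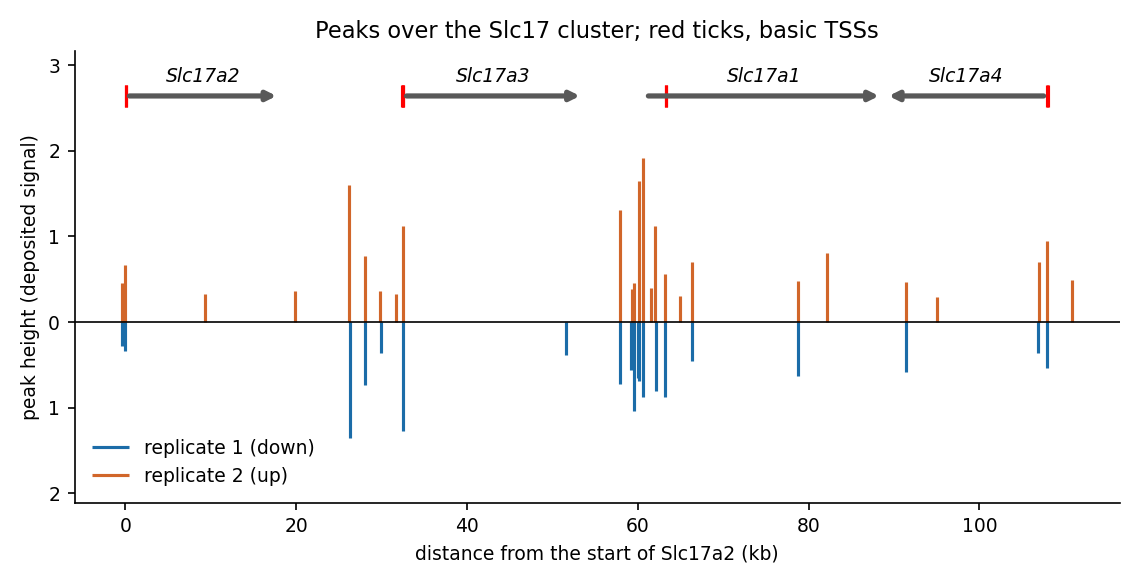
Height of each peak (deposited signal) over the Slc17 cluster by distance from the start of Slc17a2 in kb; replicate 2 is drawn upward and replicate 1 downward, arrows are gene bodies with their direction and red ticks are basic start sites. Peaks gather upstream of the basic start of Slc17a1, and no peak exceeds 1.36 in replicate 1 or 1.92 in replicate 2.

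Pdzk1, on the plus strand of chromosome 3, had a promoter peak of 3.78 and 2.43 at its most upstream basic start, 96830076, higher than 31.1% and 26.3% of genes with a promoter peak. Its other basic starts, at 96832154 and 96832171, had no peak within 500 bp. Upstream, 2 shared peaks lie in introns of the neighbouring gene Cd160, of 2.15 and 2.83 at chr3:96824741-96824900 and of 1.21 and 1.63 at chr3:96820341-96820560. The first of these holds GTTAATNAT, the site of the HNF1 tubule factors, found in 0.991% and 0.992% of all peaks. The window at the Pdzk1 start is shown because it holds CAAAGTCCA, a site of HNF4, a nuclear receptor of the proximal tubule, at bases 174 to 182. The footprint shared by both libraries ends before it, and none of its letters lay in a footprint. The letters occur in 0.475% of RefSeq promoters and in 0.921% and 0.956% of all peaks. The window also holds GGGCGG, a GC box, at bases 33 to 38, in a footprint of replicate 2 only, and 35.7% of RefSeq promoters hold that.
Pdzk1 (mm10 chr3:96829906-96830105, plus strand): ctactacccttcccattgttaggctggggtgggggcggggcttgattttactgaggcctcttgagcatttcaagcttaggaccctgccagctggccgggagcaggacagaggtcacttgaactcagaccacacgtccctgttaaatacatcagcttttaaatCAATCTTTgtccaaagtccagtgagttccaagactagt

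The libraries differed over the body of Pdzk1 more than at any other of the 8 genes. Replicate 1 had 10 peaks over the locus of 61.643 kb and replicate 2 had 58. Of the 58, 48 lay in a run of 28.42 kb (chr3:96845301-96873720), where replicate 1 had 1 peak. The first peak of the run lay 15.4 kb downstream of the Pdzk1 start, before exon 2. From there the run reached to the end of Pdzk1 and into the adjoining end of Gpr89. The run was picked out after its peaks were seen. Its peaks were low, from 0.0547 to 0.830 with a median of 0.186, 46 of them below 0.4, and they followed each other at a median spacing of 450 bp. In replicate 2, 44 of the 48 were also in the stricter list, while 14.3% of all peaks below 0.4 in that library were. Bases with a listed false discovery rate made up 0.725% of the run in replicate 1 and 67.6% in replicate 2. Exons held 12 of the 48 peaks and introns 36, and 22 held a footprint.

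Outside the run the Pdzk1 locus was alike in the 2 libraries, with 9 and 10 peaks, of which 8 and 8 had a partner. By the excess of peaks in replicate 2 over replicate 1, which was 48, Pdzk1 ranked 5 among the 21938 genes. Windows dense in low peaks were not confined to Pdzk1. Of 272543 windows of 10 kb, 6 in replicate 1 and 47 in replicate 2 held 15 or more peaks. In 1 and 30 of these the median height was below 0.4. The counts of replicate 2 include a Pdzk1 window, and they do not show whether the other windows were dense in 1 library only. The Pdzk1 window with the most peaks had 24 in replicate 2, the largest number in any window of that library, and 0 in replicate 1. The source of the run was not tested. The share of genes with a lower peak density was 75.2% and 99.9% for Pdzk1, the whole locus counted.

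**Figure D4:**
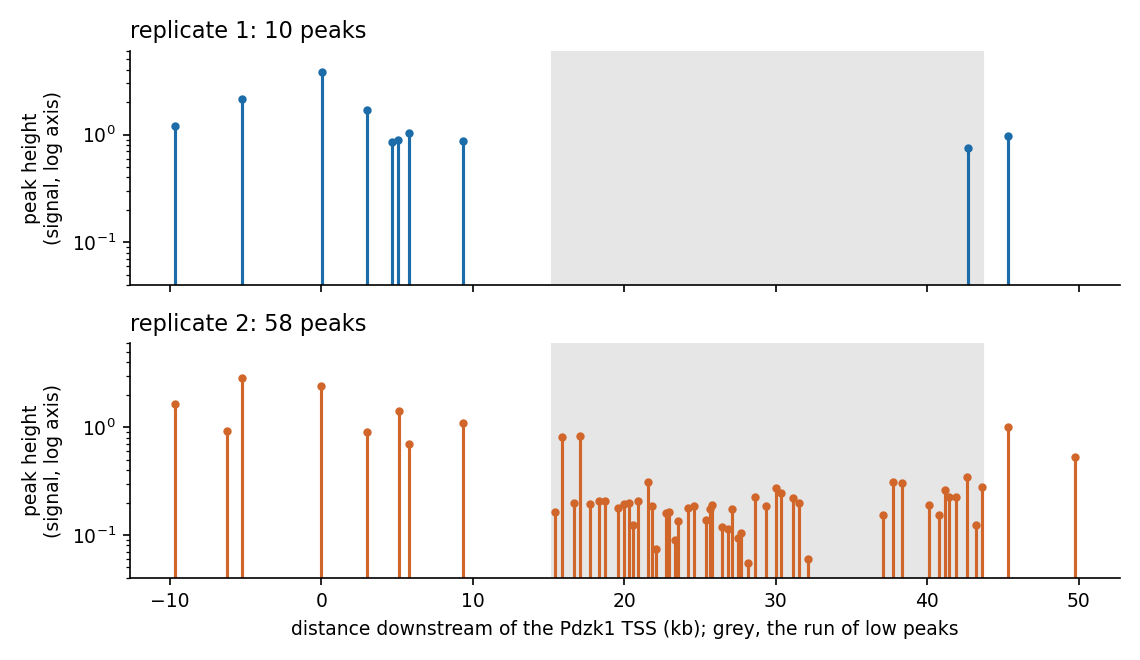
Height of each peak over the Pdzk1 locus (deposited signal, log axis) by distance downstream of the most upstream basic start in kb, with replicate 1 above and replicate 2 below; the grey band is the run of low peaks. Inside the band replicate 1 has 1 peak and replicate 2 has 48, and the peaks outside it mostly stand at the same places in both.

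Over all 8 loci, with peaks that fall in several loci counted once, there were 54 peaks in replicate 1 and 121 in replicate 2, and 73 and 243 footprints. The median gene of the set had 10 and 12.5 peaks and 11 and 31.5 footprints, beside 4 and 6 peaks and 10 and 19 footprints over all protein-coding genes. Per kb of locus the difference was smaller: the median was 0.120 and 0.168 peaks per kb, beside 0.0962 and 0.127 over all genes. Footprints came to 0.165 per kb in replicate 1, beside 0.181 over all genes, and to 0.402 in replicate 2, beside 0.355. None of the 8 was in the upper 10% of peak density in both libraries, a class that held 7.37% of all genes. Slc17a3 was in it in replicate 1 alone and Pdzk1 in replicate 2 alone.

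Most peaks that replicate 1 listed over these loci recurred in replicate 2. Of the 54 peaks of replicate 1, 50 overlapped a peak of replicate 2, that is 92.6% (exact 95% binomial interval 82.1 to 97.9%, counting error only), beside 87.6% of the whole library. In the other direction 49 of 121 recurred, or 40.5% (31.7 to 49.8%), beside 62.2% of the whole library. Without Pdzk1 the second share was 63.5% (40 of 63, 50.4 to 75.3%). A footprint was present in 72.2% of the peaks of replicate 1 and 75.2% of those of replicate 2, beside 73.3% and 86.7% of all peaks. Without Pdzk1 the second value was 93.7%. Footprints recurred in 55 of 73 cases from replicate 1 to replicate 2 (75.3%, 63.9 to 84.7%), beside 77.2% of the whole library. In the other direction 53 of 243 did (21.8%, 16.8 to 27.5%), beside 33.4%.

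Heights of the 50 shared peaks followed each other, with a Spearman correlation of 0.789 across peaks, which share their libraries and in part their loci. On the log2 scale, replicate 2 over replicate 1 had a median of 0.22 (SD 0.61 over peaks), beside 0.18 (SD 0.50) over all shared peaks, and 44 of the 50 lay within 2-fold of that library median. In the Slc17 cluster the median ratio of 19 shared peaks was 0.47 (SD 0.73). Single peaks ranged from -1.21 to 1.34, both ends lying in the Slc17 cluster, and the Slc2a9 promoter peak stood at 1.24. Replicate 1 listed overlapping entries of 0.650 and 0.692 from chr13:23866875 on. They were counted separately and paired with the same replicate 2 peak of 1.65, and the entry of 0.650 gave the upper end.

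**Figure D5:**
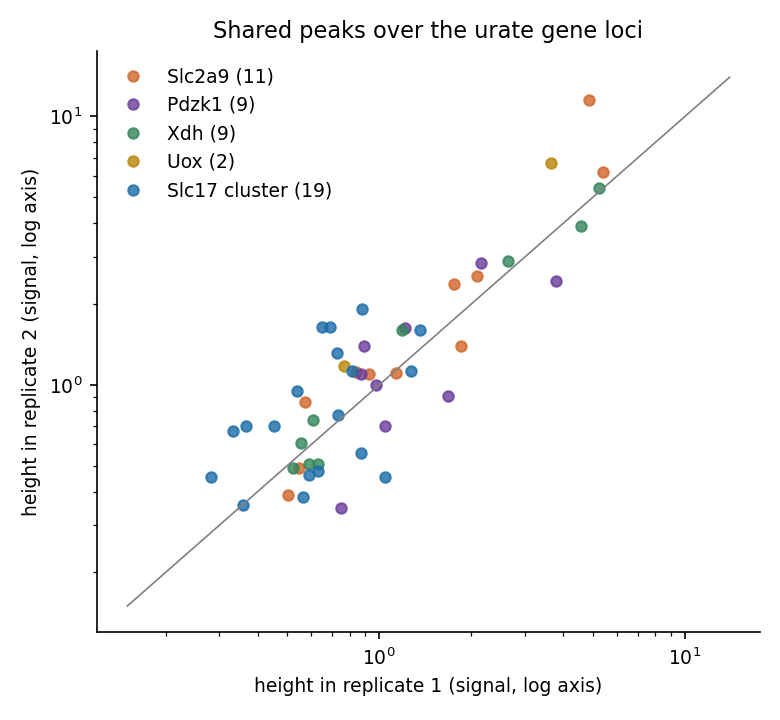
Height in replicate 2 against height in replicate 1 (deposited signal, log axes) for peaks of the 8 loci shared by both libraries; the line marks equal heights and the legend gives the number of peaks per locus. The points lie around the line, and the Slc17 cluster reaches at most 1.36 in replicate 1 and 1.92 in replicate 2. A few peaks of Slc2a9, Xdh, Uox and Pdzk1 stand higher, while other peaks of Slc2a9 and Xdh lie as low as the cluster.

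Of 38 further genes of urate handling and its setting, 32 had a promoter peak in both libraries, beside 65.3% of all protein-coding genes, and the lists' counts were not tested against that share. Among other renal urate transporters 9 of 11 did. The highest, by the mean of the libraries here as below, were those of the efflux pump genes Abcc4, at 7.97 and 8.98, and Abcg2, at 4.66 and 3.55, and the organic anion transporter genes Slc22a8 and Slc22a13 had none. Median heights of this list were 2.47 and 2.20. Among genes of purine breakdown and salvage 9 of 12 did. The highest were the AMP deaminase gene Ampd2 at 12.7 and 15.8 and the adenine salvage gene Aprt at 11.6 and 16.4. The 3 without one were Urah, Urad and Allc, whose enzymes act downstream of urate oxidase.

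Of the other SLC17 genes, 4 of 5 had a promoter peak in both libraries, again beside 65.3% of all genes. The sialic acid transporter gene Slc17a5 had heights of 8.94 and 9.75 and the vesicular nucleotide transporter gene Slc17a9 had 2.55 and 2.15, above all 4 genes of the cluster, and Slc17a8 had none. All 4 PDZ scaffold genes did, led by Slc9a3r1, which encodes NHERF1, at 18.1 and 22.9, and Pdzk1ip1, whose product binds PDZK1, at 4.50 and 4.22. All 6 genes of tubule transcription factors did, led by the nuclear receptor genes Esrra at 26.5 and 35.6 and Ppara at 16.9 and 13.5. The median height over the lists' genes with a promoter peak was 3.66 and 3.48, beside 1.27 and 1.12 for the urate genes and 7.36 and 6.63 for all genes.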

How the data were processed

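The 2 DNase-seq libraries are biological replicates of 1 group; the labels give them separate biosamples but 1 donor code. Each came with 2 peak lists, 1 list of footprints and 1 track of false discovery rates, on mm10 per the labels. The aligner and callers are not named in the labels or headers. The main list is the longer one of each library; the shorter, with 80441 and 119139 peaks, was the stricter alternative. Column 7 holds the deposited peak height (signal, scaled by the authors). The deposited false discovery rates (q-values) are listed only below 0.05, over 36.1 Mb and 50.8 Mb, and the footprint lists, per the files deposited, carry the q-value 0.01 in every row. Depth is unknown, so intervals cover counting error over peaks only. The mice carry CAST/EiJ alleles while mm10 is C57BL/6J, and reads that fail to align at variants would lower peaks. No step for this is named in the labels.

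Start sites came from GENCODE M21 basic, with the comprehensive set as an alternative. Promoter height is that of the highest peak within 500 bp of any start. Loci are gene bodies with 10 kb on each side, and densities have 0.5 added to the peak count. Overlaps are of at least 1 bp. Sequence came from GRCm38.p6, on which no peak ran past a chromosome end (21 compared). RefSeq promoters (GRCm38.p6) matched 6 of the 8 genes. The 11 motifs were searched as exact matches on both strands. They included GTTAATNAT (HNF1), CAAAGTCCA (HNF4), TCAAGGTCA (estrogen-related receptors), AGGTCAAAG (part of a direct repeat), TGANTCA (AP-1) and GGGCGG (GC box). The others were CCAAT (for the factor NF-Y), TATAAA (for the factor TBP), CACGTG (E-box), TTGCGCAA (C/EBP) and AGGGGGCGC (CTCF). Sequences at starts inside first exons are shown as windows around the start in place of whole peaks. The members, gene lists, motifs and settings were chosen with earlier results of these data known. Named are all 8 genes, their promoter peaks and the highest other shared peaks, and per list the 2 highest genes by promoter peak and at most 3 that lack one; other peaks were chosen after their values were seen. Scripts ran in Python 3.11.15 with numpy 2.4.6 and scipy 1.17.1, and figures in matplotlib 3.10.9. Tested on simulated data, the promoter step recovered 200 of 200 planted peaks among 19068 genes, with 0 false calls.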

Additional observations from a re-analysis of the deposited data

How the results depend on the processing

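The count of urate genes with a promoter peak stayed at 7 with start windows of 100 bp or 1 kb, with comprehensive start sites and in either library alone. It was 5 in the stricter lists, without Slc17a2 and Slc17a4, and 5 when only the annotated gene start was used, without Slc2a9 and Pdzk1; there the Slc17a1 peak averaged 1.40. It was 4 among the upper 50% of peaks by height. The matching shares of all protein-coding genes were 59.7% and 67.0% with windows of 100 bp and 1 kb. They were 66.9% with comprehensive start sites, and 66.2% and 68.0% in replicates 1 and 2 alone. In the stricter lists the share was 62.0%, with the annotated gene start only 61.6%, and among the upper 50% of peaks 58.9%. The counts were not tested against these shares. The mean number of footprints over the loci, 158 in the main setting, was 104 over gene bodies alone and 249.5 with flanks of 50 kb, and 73 and 243 when 1 library was left out. The mean number of peaks, 87.5, was 32.5 among the upper 50% by height, 53.5 without Pdzk1, and 54 and 121 when 1 library was left out. The share of peaks with a footprint, 74.3%, was 85.1% without Pdzk1. The share of replicate 1 peaks found in replicate 2, 92.6%, was 79.6% at a reciprocal overlap of 50%, and the share in the other direction was 40.5%. The count of genes in the upper 10% of density, 0 in both libraries, was 1 in each library alone. Of 189 values under alternatives, 126 stayed within their limits and 63 moved. The limits were wide, since the falls of the count from 7 to 5 lay within them. Heights of promoter peaks that an alternative lost, such as Slc17a2 in the stricter lists, are not among the 189. With comprehensive start sites the Xdh promoter peak averaged 5.33, against 2.76 with basic ones. The settings without Pdzk1, with comprehensive start sites and with the direction of overlap turned were chosen after seeing the data. No paired analysis was possible because both libraries belong to 1 group. With 2 libraries of unknown depth, a missing low peak was not detectable at this depth and is not shown to be absent.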
